A study of Mus musculus with 40 samples.

Results

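The collagen gene family was described across EMT-6 tumors treated to block PD-L1, to trap TGF-β, or both. Its members were all mouse genes whose symbol consists of "Col", a type number, the letter "a" and a chain number, with symbols taken from the GENCODE M21 annotation of the Ensembl gene IDs in the count table. The rule gave 44 genes of the 39012 in the table, of which 37607 had a symbol. By structure they were 11 fibrillar collagens, 6 type IV (basement membrane) chains, 6 type VI chains, 9 FACIT collagens (fibril-associated collagens with interrupted triple helices), 4 transmembrane collagens, 2 multiplexins, 3 short-chain network collagens of types VIII and X, and 3 others (Col7a1, Col26a1 and Col28a1).

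EMT-6, a cell line from a mouse mammary carcinoma, was grown in the mammary pad of female Balb/C mice aged 8 to 12 weeks, and dosing began 20 days after inoculation, at a mean tumor volume near 400 mm3. Intravenous doses were given to all animals on days 0, 1 and 2 and tumors collected on day 6, so every group, controls included, received an antibody-based protein. For each of 4 groups, 10 libraries came from tumors given 492 µg of the bifunctional anti-PD-L1/TGF-β trap (an antibody against PD-L1 joined to a TGF-β-binding receptor domain), 492 µg of a trap control in which the anti-PD-L1 antibody is mutated, 400 µg of anti-PD-L1, or 400 µg of an inactive isotype control. The agents thus differ in mass as well as in what they bind. Whole tumors were snap-frozen and total RNA was sequenced after ribosomal depletion, so host stroma, host immune cells and carcinoma cells were measured together, and a lower share of a cell type cannot be told apart from less RNA per cell of that type.

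The library numbers in the sample titles run in blocks by treatment. Numbers C0449 to C0464 (the first libraries) hold the 10 isotype and 6 of the trap control tumors, and C0465 to C0488 (the later libraries) hold the other 4 trap control tumors, 10 anti-PD-L1 and 10 bifunctional tumors. The labels name no batch, but the 2 runs of numbers differed: the share of counts from 4 structural RNAs was 29.7% to 62.3% in the first libraries and 11.7% to 18.0% in the later ones, with total counts of 13495835 to 25108601 and 21987948 to 27658263. Values are therefore given as CPM (counts scaled to library size within each run), and the runs are not compared by CPM. Collagen genes took 1.42% to 3.92% of all counts in bifunctional tumors, 1.24% to 2.12% in the later trap control tumors and 0.889% to 2.58% in anti-PD-L1 tumors; among the first libraries they took 0.552% to 1.44% in trap control tumors and 0.525% to 1.74% in isotype tumors.

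Collagens are triple helices of 3 alpha chains, each built from short repeats that begin with glycine. Fibrillar collagens, chiefly types I and III, form the cables of connective tissue and are made mainly by fibroblasts; type IV forms the sheet under epithelia and endothelia; type VI forms beaded filaments around cells; FACIT collagens sit on fibril surfaces; transmembrane collagens are cell-surface proteins. TGF-β is a known inducer of collagen synthesis in fibroblasts and of the desmoplastic stroma of carcinomas.

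The proximal promoters of the 2 most abundant members per length, Col1a2 and Col3a1, are shown because their levels dominate the family and because both hold the letters CAGACA, which contain the core of the SMAD-binding element used by TGF-β signalling. Sequences are from RefSeq promoters of build GRCm38.p6 (mm10), 5′ to 3′ on the gene's strand. Capitals mark GGGCGG (the core of the Sp1 box), CAGACA or its complement TGTCTG, and TATAAA. The first stretch is the longest part of the Col1a2 window outside every annotated exon, at chr6:4505370-4505492 on the plus strand. It lies inside the annotated gene, which starts at 4504814, and the bases between it and the RefSeq start are not shown. The Col1a2 window also holds CCAAT, outside the printed stretch. The Col3a1 stretch is at chr1:45311288-45311537, also on the plus strand.
Col1a2: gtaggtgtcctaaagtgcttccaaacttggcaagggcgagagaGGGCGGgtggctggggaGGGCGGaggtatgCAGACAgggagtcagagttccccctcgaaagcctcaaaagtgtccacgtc
Col3a1: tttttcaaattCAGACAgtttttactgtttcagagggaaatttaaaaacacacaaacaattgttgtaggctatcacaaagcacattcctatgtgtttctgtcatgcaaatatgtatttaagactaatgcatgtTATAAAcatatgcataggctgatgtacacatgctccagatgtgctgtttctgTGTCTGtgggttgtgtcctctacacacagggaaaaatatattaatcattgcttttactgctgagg
In Col1a2, GGGCGG starts 205 and 188 bases before the RefSeq start and CAGACA 175 bases before it. In Col3a1, CAGACA starts 239 bases before the start, TATAAA 117 bases before it and TGTCTG 65 bases before it. Each motif was searched on both strands from 250 bases before to 50 bases after the start of all 27025 promoters and of the 35 members with one. CAGACA was in 22.9% of the member promoters (8 of 35) and in 21.03% of all promoters. TATAAA was in 14.3% and 14.2%, and CCAAT in 34.3% and 37.9%. GGGCGG was in 62.9% of the member promoters and in 35.9% of all, and it can share bases with CCAAT. A match is a description of the letters, not of a bound site.

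Type IV chains lie in head-to-head pairs. Col4a1 (ENSMUSG00000031502, chromosome 8, 11198423 to 11312826, minus strand) and Col4a2 (ENSMUSG00000031503, chromosome 8, 11312805 to 11449287, plus strand) share the following 22 bases at chr8:11312805-11312826, given on the plus strand, where their annotated starts overlap; the capitals again mark GGGCGG.
Col4a1 and Col4a2: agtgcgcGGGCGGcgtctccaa
Col4a3 and Col4a4 are divided by 71 bases and Col4a5 and Col4a6 by 1308 bases. Col3a1 and Col5a2 lie 24614 bases apart on chromosome 1 and point towards each other. Whether the counting used strand is not given in the sources used here, so reads from such overlapping starts could have been given to either gene.

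Type I and type III chains made up most of the collagen message in every group. Measured as deposited TPM (transcript abundance per length and library), which allow levels to be compared between genes, Col1a2 ranked first of the 44 members in each group of each run, Col3a1 and Col1a1 came next in either order, and Col12a1 and then Col6a1 followed. Col1a2, the alpha 2 chain of type I, had 473.17 ± 109.5 TPM in bifunctional tumors, 362 ± 81.1 in the later trap control tumors and 338 ± 109 in anti-PD-L1 tumors (SD, n = 10, 4 and 10). Col3a1, the single chain of type III, had 438 ± 229.8, 264 ± 88.2 and 253 ± 123 TPM in the same order of groups. Col1a1, the alpha 1 chain of type I, had 212 ± 112, 140.0 ± 67.7 and 93.8 ± 42.5 TPM. In the first libraries Col1a2 had 178 ± 62.6 TPM in trap control tumors and 141 ± 48.0 in isotype tumors (n = 6 and 10). These 3 genes together held 71.0% ± 3.45 of the summed collagen TPM in bifunctional tumors, 69.4% ± 3.73 in the later trap control tumors and 68.2% ± 2.23 in anti-PD-L1 tumors, and 66.8% ± 2.44 in the first trap control tumors and 65.3% ± 2.16 in isotype tumors. Within each run the groups differed by less than the larger SD.

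By class, fibrillar genes held 76.3% ± 3.75 of collagen TPM in bifunctional tumors, 74.8% ± 4.01 in the later trap control tumors and 73.6% ± 2.26 in anti-PD-L1 tumors. FACIT genes held 7.63% ± 1.498, 8.28% ± 1.98 and 8.28% ± 1.19 in those groups, and type VI genes 8.21% ± 1.80, 8.47% ± 1.59 and 9.07% ± 0.887. Basement membrane genes held 3.24% ± 0.739, 3.38% ± 0.396 and 3.49% ± 0.596. Transmembrane genes held 0.131% ± 0.177, 0.0865% ± 0.0101 and 0.0832% ± 0.0194. In the first libraries the fibrillar share was 71.5% ± 2.06 in trap control tumors and 70.8% ± 2.16 in isotype tumors, the FACIT share 9.21% ± 1.32 and 10.97% ± 1.40, and the basement membrane share 4.44% ± 1.31 and 3.57% ± 0.457.

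**Figure D1:**
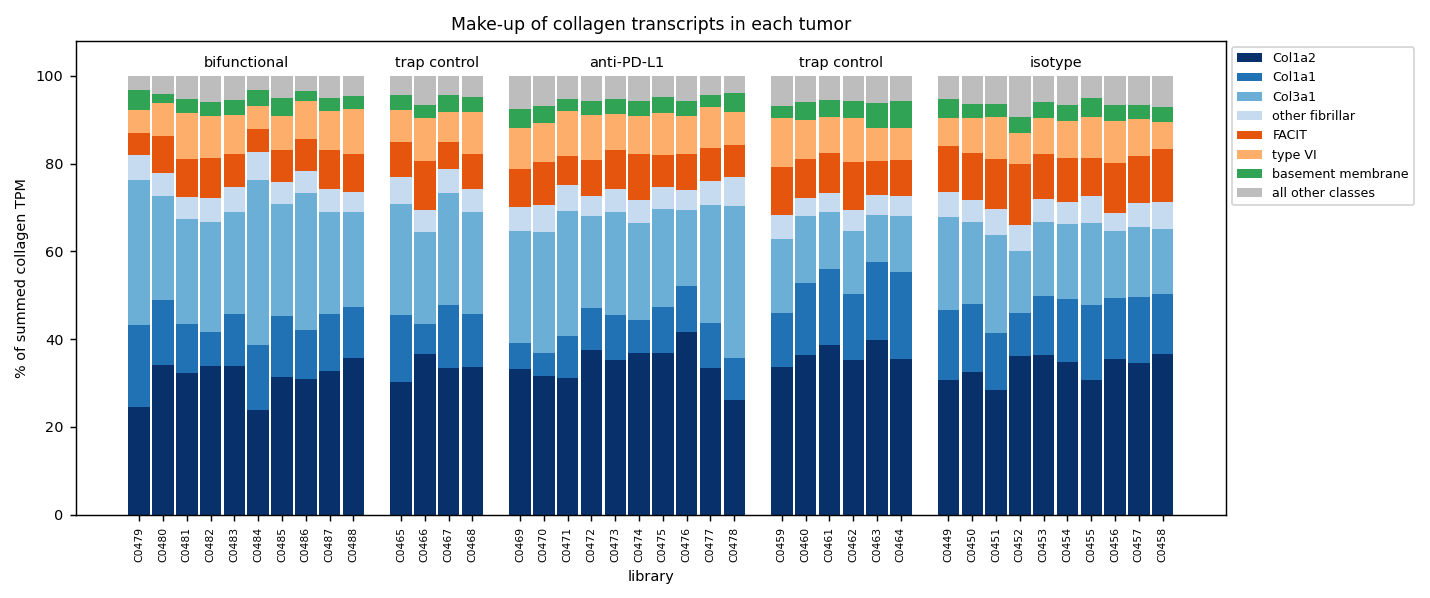
Share of summed collagen TPM held by each class in each library, in percent of collagen TPM (stacked bars, 1 per tumor, grouped by treatment and run; Col1a2, Col1a1 and Col3a1 are drawn apart from the other fibrillar genes). Fibrillar genes held 66.0% to 82.6% in every library.

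Some members were barely present. In 13 of the 44 the median over the 40 libraries was under 10 counts: Col2a1, Col9a1, Col9a2, Col19a1, Col22a1, Col4a3, Col4a4, Col4a6, Col6a4, Col6a5, Col6a6, Col25a1 and Col26a1. This set includes Col2a1, the main cartilage collagen, at 0 to 0.316 CPM in bifunctional tumors and 0 to 0.0426 CPM in anti-PD-L1 tumors, and the type IV chains of restricted tissues. Cartilage markers Acan, Matn1 and Cnmd had medians of 0.0406, 0 and 0.0173 CPM in bifunctional tumors. Filters on low counts left 32 members to test among 14183 genes in the first libraries, 37 among 15704 in the later ones and 39 among 16174 in all 40 libraries.

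Before the comparisons, 2 bifunctional libraries need naming. In markers of host tissue next to the tumor, C0479 and C0484 stood apart for skeletal muscle, and C0479 for skin. The summed CPM of 9 skeletal muscle markers was lowest at 2.08, with a median of 7.65 and a highest value of 3725 (C0484, with 1916 in C0479) in bifunctional tumors, against 1.99, 2.62 and 250.04 in anti-PD-L1 tumors. That of 6 skin keratinocyte markers was 1.71, 8.49 and 2619.8 (C0479) in bifunctional tumors, against 2.86, 5.57 and 13.5 in anti-PD-L1 tumors, and the median of the defining markers Krt1, Lor and Dsg1a was 0 in bifunctional tumors. The sum of 8 adipocyte markers was 46.7, 145 and 1824 (C0484) against 60.2, 94.4 and 263. For these markers C0485 (566 CPM) lay above C0479 (510 CPM), C0483 had 325 CPM, and the trap control tumor C0467 had 692 CPM. C0485 was also highest of the bifunctional group for Schwann cell markers, at 46.8 CPM. C0479 held the highest value of the bifunctional group for 15 of the 35 members considered and C0484 for 7. Counts of called collagen genes that rest on bifunctional tumors are therefore also given without C0479 and C0484. C0483 and C0485 stayed in those fits, which thus do not leave out every tumor with high adipocyte markers.

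The comparison of the bifunctional agent with anti-PD-L1 adds TGF-β trapping to PD-L1 blockade. Of 37 collagen genes tested, 7 were higher and 0 lower in bifunctional tumors than in anti-PD-L1 tumors (edgeR quasi-likelihood test, Benjamini-Hochberg adjusted p under 0.05 over all 15704 genes). That is 18.9% of the members, set beside 25.6% of all genes called in either direction, 12.4% called higher and 13.1% called lower. The share called was thus below the background in either direction and above it among genes called higher, and this difference was not tested. An unadjusted p under 0.05 was found for 11 (29.7%, beside 40.7% of all genes). The direction was more one-sided: 33 of 37 members had a positive log2 fold change (89.2%, against 52.0% of all genes), with a median of 0.46 against 0.01. The median stayed positive in 14 alternative settings, at 0.17 to 0.50. With GC and length trends removed the calls were 5 higher and 2 lower (Col13a1 and Col18a1), beside 3871 of 15704 genes called. In that setting 7 core members turned negative (Col5a1, Col6a1, Col6a2, Col6a3, Col12a1, Col16a1 and Col8a1, at -0.081 to -0.0032), while the median of all genes was -0.08. The 7 that rose were Col8a2 and Col10a1 of the short-chain network class, Col11a1 and Col1a1 of the fibrillar class, Col17a1 and Col23a1 of the transmembrane class, and Col14a1 of the FACIT class. DESeq2 called 7 higher, with Col6a6 in place of Col17a1, and 1 lower, Col13a1 (beside 4441 of 15704 genes). Without C0479 and C0484, 3 of 37 were called (8.11%, beside 4.91% of all genes), namely Col8a2, Col11a1 and Col10a1, 28 of 37 were positive, and the median was 0.21 against 0.03 over all genes. Leaving out 1 library at a time, 3 passed without C0479 (beside 2141 of 15585 genes) and 12 without C0478, an anti-PD-L1 tumor. The calls over all genes without C0478 are not given here, so the 12 cannot be set against a background.

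**Figure D2:**
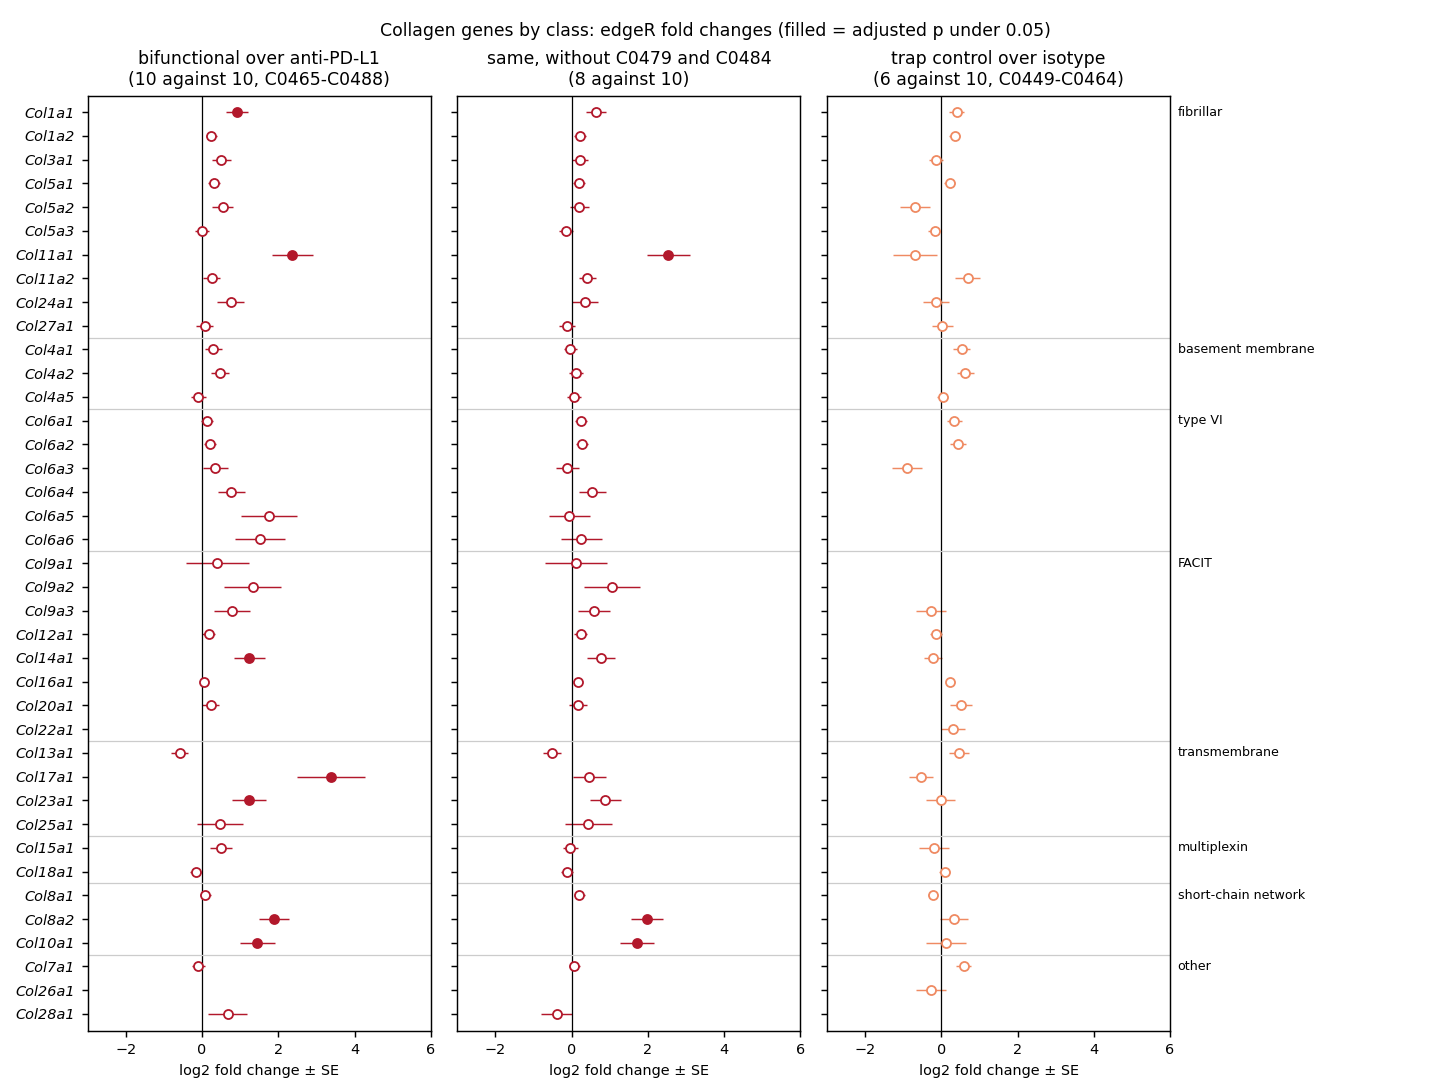
Log2 fold change of each tested collagen gene with its standard error (bars), by class, for bifunctional over anti-PD-L1 tumors, the same without libraries C0479 and C0484, and trap control over isotype tumors; filled points have an adjusted p under 0.05. Col17a1 moves to 0.46 without the 2 libraries, while Col8a2, Col11a1 and Col10a1 lie at 1.98, 2.53 and 1.71.

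Among the fibrillar genes all 10 tested members had a positive log2 fold change, with a median of 0.40, and 2 passed the test; with GC and length trends removed Col5a1 lay at -0.0032, and without C0479 and C0484 8 of 10 were positive, Col5a3 lying at -0.15 and Col27a1 at -0.13. Col1a1 (ENSMUSG00000001506, chromosome 11, 94936224 to 94953042, plus strand) had lowest, median and highest values of 1337, 2957 and 7304 CPM in bifunctional tumors, 3207, 1019.8, 3054 and 2562 CPM in the 4 later trap control tumors (C0465 to C0468), and 604, 1830.1 and 2643 CPM in anti-PD-L1 tumors. The groups overlapped: 8 of 10 bifunctional tumors lay above the anti-PD-L1 median and 6 above its highest tumor, and the highest value was in C0479, with 4163 in C0484. Col1a1 rose by 0.92 on the log2 scale (SE 0.29, adjusted p = 0.0252). It did not pass without C0479, at 0.70 (SE 0.26), nor without both libraries, at 0.63.

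Col1a2 (ENSMUSG00000029661, chromosome 6, 4504814 to 4541544, plus strand), which pairs with Col1a1 in the type I trimer, had 4290.1, 6073 and 8391 CPM in bifunctional tumors (lowest, median, highest), 5323, 4601, 6241 and 6214 CPM in trap control tumors and 2781, 5894 and 6559.7 CPM in anti-PD-L1 tumors. The medians lay close together, and 5 of 10 bifunctional tumors were above the anti-PD-L1 median. Its log2 fold change of 0.24 (SE 0.14, adjusted p = 0.205) did not pass. Col3a1 (ENSMUSG00000026043, chromosome 1, 45311538 to 45349706, plus strand) had 3286, 5067 and 12238 CPM in bifunctional tumors, 5005, 2905, 5136 and 4661 CPM in trap control tumors and 2446, 3912 and 8928 CPM in anti-PD-L1 tumors. Bifunctional tumors lay above the anti-PD-L1 median in 9 of 10 cases, but 1 anti-PD-L1 tumor (C0478, 8928 CPM) exceeded all but C0479, C0484 and C0486. The log2 fold change was 0.50 (SE 0.25, adjusted p = 0.126) and 0.22 without C0479 and C0484.

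Type V and type XI chains sit inside type I fibrils, where they start assembly and limit fibril width. Col11a1 (ENSMUSG00000027966, chromosome 3, 114030540 to 114220718, plus strand), best known from cartilage and also from the fibroblasts of carcinomas, had 2.66, 11.8 and 112 CPM in bifunctional tumors, 12.0, 1.06, 21.7 and 8.48 CPM in trap control tumors and 2.49, 4.02 and 6.16 CPM in anti-PD-L1 tumors. In 8 of 10 bifunctional tumors it exceeded every anti-PD-L1 tumor, the exceptions being C0482 (2.66 CPM) and C0483 (4.92 CPM), while C0480 stood far above the next value of 22.04 CPM. It rose by 2.37 on the log2 scale (SE 0.54, adjusted p = 0.00720), by 1.49 (SE 0.38) without C0480 and by 2.53 without C0479 and C0484, and it passed in each case. The sum of 6 cartilage markers was 6.02, 11.3 and 21.5 CPM in bifunctional tumors (lowest, median, highest) and 7.32, 9.09 and 12.1 CPM in anti-PD-L1 tumors. Sox9, a transcription factor that other cells also express, carried almost all of it, at 5.39, 10.5 and 21.1 and 6.83, 8.25 and 12.0 CPM.

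Col5a1 had 468.20, 777 and 1253 CPM in bifunctional tumors and 341, 654 and 931 CPM in anti-PD-L1 tumors, with a log2 fold change of 0.31 (adjusted p = 0.156). Col5a2 had 271, 429 and 1117 and 192, 337 and 859 CPM in those groups, with 0.54 (adjusted p = 0.157). Neither passed, and both pairs of groups overlapped over most of their range. The other fibrillar members tested, named here to complete the class after their values were seen, were Col24a1 at 0.75, Col11a2 at 0.25, Col27a1 at 0.07 and Col5a3 at 0.00 on the log2 scale. On log2(TPM + 1) and log2(TPM + 0.1) limma called Col24a1 higher, beside 3086 and 3158 of 15704 genes called. The medians of all genes on those scales were 0.15 and 0.27.

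The short-chain network collagens form hexagonal lattices, type VIII in the walls of vessels and under the corneal endothelium, type X in hypertrophic cartilage. Col8a2 (ENSMUSG00000056174, chromosome 4, 126286793 to 126314330, plus strand) had 4.92, 11.9 and 46.6 CPM in bifunctional tumors, 7.98, 2.29, 21.8 and 8.30 CPM in trap control tumors and 2.06, 3.48 and 7.11 CPM in anti-PD-L1 tumors. All 10 bifunctional tumors lay above the anti-PD-L1 median and 8 above its highest tumor; C0479 (12.2 CPM) and C0484 (12.9 CPM) were near the group's median. The means were 15.3 ± 12.4 CPM in bifunctional and 4.10 ± 1.83 CPM in anti-PD-L1 tumors (SD, n = 10 each), and the gene rose by 1.90 on the log2 scale (SE 0.39, adjusted p = 0.00534). It passed in all 20 fits that left out 1 library, at 1.52 to 2.02.

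Col10a1 (ENSMUSG00000039462, chromosome 10, 34389981 to 34397085, plus strand) had 1.19, 3.92 and 12.99 CPM in bifunctional tumors, 4.06, 1.68, 0.981 and 9.98 CPM in trap control tumors and 1.08, 1.24 and 4.30 CPM in anti-PD-L1 tumors. C0487 was highest, and C0479 (1.58 CPM) and C0484 (1.19 CPM) were among the lowest of the bifunctional group; 9 of 10 lay above the anti-PD-L1 median. It rose by 1.45 on the log2 scale (SE 0.46, adjusted p = 0.0268), and the call was lost without C0487, at 1.17 (SE 0.44). Col8a1, the partner chain of Col8a2 in type VIII, had 170.2, 405 and 491 CPM in bifunctional tumors and 271, 364 and 419.9 CPM in anti-PD-L1 tumors, a log2 fold change of 0.08 (SE 0.14, adjusted p = 0.690).

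**Figure D3:**
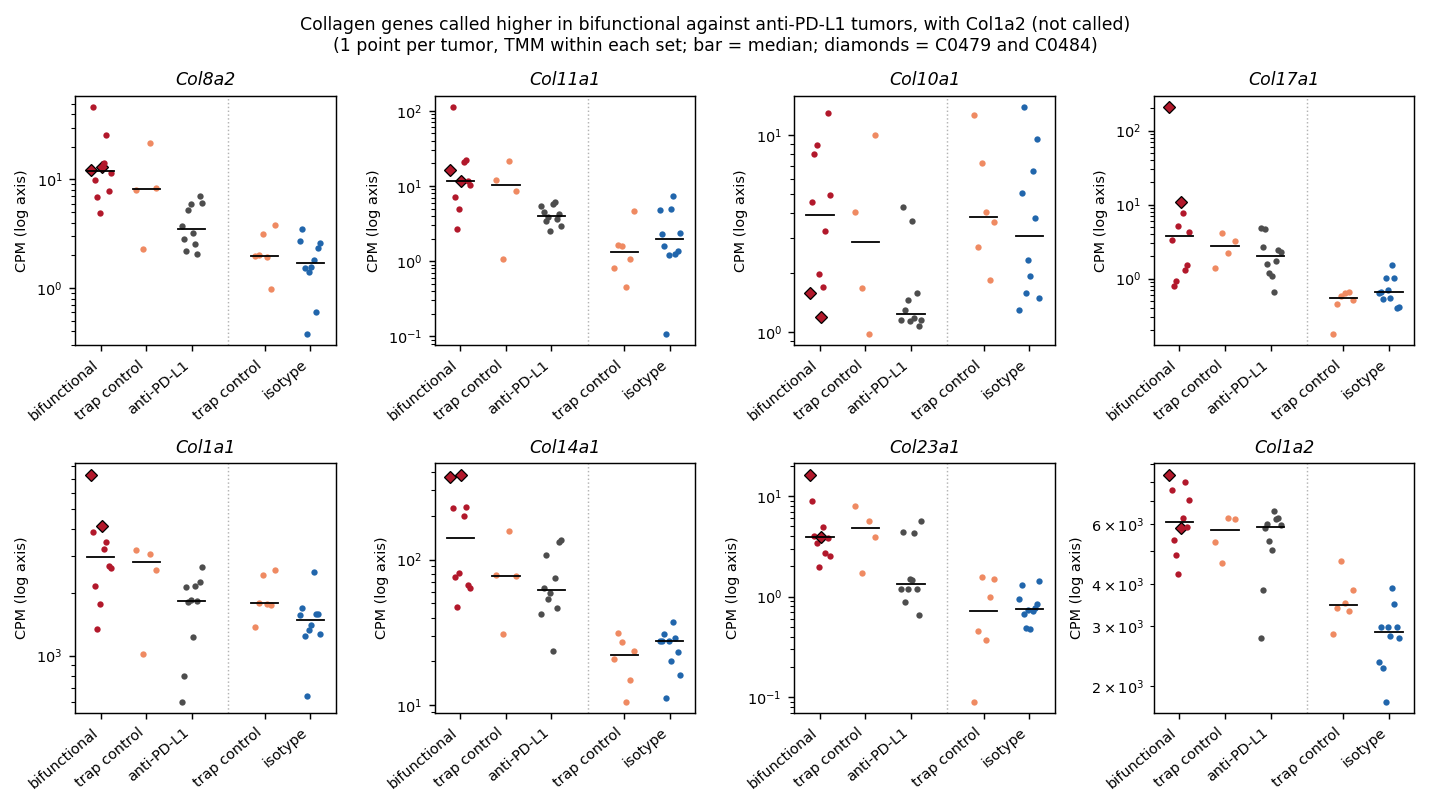
CPM of the 7 collagen genes called between bifunctional and anti-PD-L1 tumors, and of Col1a2, in each tumor (points, log axis; diamonds are C0479 and C0484), by group and run. Col8a2 and Col11a1 lie above the highest anti-PD-L1 tumor in 8 of 10 bifunctional tumors each, while the highest Col17a1 value is C0479 at 208 CPM.

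In the basement membrane class none of the 3 tested chains passed (0 at adjusted p under 0.05 by edgeR, and 0 at unadjusted p under 0.05), with a median log2 fold change of 0.30. Col4a1 had 325, 398 and 1228 CPM in bifunctional tumors, 473.04, 281, 587 and 447 CPM in trap control tumors and 302, 385 and 828 CPM in anti-PD-L1 tumors. The highest bifunctional values were C0479 and then C0484 (726 CPM), and the highest anti-PD-L1 value was C0478. Col4a1 had a log2 fold change of 0.30 (SE 0.23, adjusted p = 0.333), and -0.04 without C0479 and C0484. Col4a2 had 177, 222 and 705 CPM in bifunctional tumors, 259, 135, 287 and 231 CPM in trap control tumors and 127, 197 and 392 CPM in anti-PD-L1 tumors, with 0.46 (SE 0.24, adjusted p = 0.147). The remaining chain tested, Col4a5, named to complete the class after its value was seen, had -0.10, and 0.06 without C0479 and C0484. Endothelial markers, whose cells lay down type IV collagen, summed to 209, 249.7 and 707 CPM in bifunctional tumors (lowest, median and, in C0479, highest) and 177, 218 and 412 CPM in anti-PD-L1 tumors; their part in these values was not tested.

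All 6 type VI chains were tested and none passed by edgeR in the fit of the later libraries (0 at adjusted p under 0.05, 3 at unadjusted p under 0.05), with a median of 0.56. Col6a1 and Col6a2, the short chains of the filament, had 0.13 and 0.21 on the log2 scale, from 436, 709 and 1054 CPM in bifunctional tumors against 368, 659.6 and 849.8 CPM in anti-PD-L1 tumors for Col6a1, and 299, 412 and 584 against 216, 375 and 515 for Col6a2. Col6a3, the long chain, had 134, 257 and 818 CPM in bifunctional tumors, 362, 84.7, 306 and 242 CPM in trap control tumors and 87.9, 212 and 539.8 CPM in anti-PD-L1 tumors, with 0.35 and -0.11 without C0479 and C0484. The large positive values in this class came from the scarce alternative chains Col6a5 (1.76, adjusted p = 0.0773) and Col6a6 (1.52, adjusted p = 0.0865), named after their values were seen, which reached 5.61 and 13.2 CPM in C0479. DESeq2 called Col6a6 higher, and the edgeR fit of all 40 libraries called both. On log2(TPM + 0.1) limma called Col6a4 higher, beside 3158 of 15704 genes called and a median of 0.27 over all genes.

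Of 7 FACIT genes tested 1 passed. Col14a1 (ENSMUSG00000022371, chromosome 15, 55307750 to 55520803, plus strand), a fibril-surface collagen of skin and tendon, had 47.4, 141 and 384 CPM in bifunctional tumors, 78.8, 30.7, 158 and 76.7 CPM in trap control tumors and 23.5, 61.5 and 136 CPM in anti-PD-L1 tumors. Bifunctional tumors lay above the anti-PD-L1 median in 9 of 10 cases and above its highest tumor in 5, and the highest 2 were C0484 and C0479 (372 CPM). Col14a1 rose by 1.24 (SE 0.40, adjusted p = 0.0297), and the call was lost without C0474, C0479 or C0484 and without both of the last, at 0.77. Col12a1, the most abundant FACIT gene per length, had 828, 1868 and 2391 CPM in bifunctional tumors and 781, 1541 and 2235 CPM in anti-PD-L1 tumors (0.18, adjusted p = 0.439). Col16a1, found at fibril and basement membrane borders, had 221, 346 and 413 and 203, 315 and 375 CPM (0.05, adjusted p = 0.736).

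Among the 4 transmembrane genes 2 passed, and 1 library set much of the result. Col17a1 (ENSMUSG00000025064, chromosome 19, 47646344 to 47692094, minus strand), a hemidesmosome protein of basal keratinocytes, had 0.801, 3.80 and 208 CPM in bifunctional tumors, 1.41, 4.19, 2.21 and 3.25 CPM in trap control tumors and 0.653, 2.02 and 4.87 CPM in anti-PD-L1 tumors. C0479, the library with the highest skin markers, held the highest value and C0484 the next (10.9 CPM); the other 8 bifunctional tumors lay between 0.801 and 7.81 CPM. Col17a1 rose by 3.39 (SE 0.90, adjusted p = 0.0133), with 0.78 (SE 0.45) and no call without C0479. Col23a1 (ENSMUSG00000063564, chromosome 11, 51289920 to 51583918, plus strand) had 1.98, 3.88 and 16.3 CPM in bifunctional tumors, 7.98, 1.72, 5.64 and 3.89 CPM in trap control tumors and 0.654, 1.33 and 5.67 CPM in anti-PD-L1 tumors. All 10 bifunctional tumors lay above the anti-PD-L1 median but only 2 above its highest tumor, and the rise of 1.23 (SE 0.43, adjusted p = 0.0408) lost its call in 11 of 20 fits that left out 1 library. Without C0479 the log2 fold change of Col23a1 was 0.85.

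Col13a1, a transmembrane collagen of cell-matrix contacts, ran the other way. It had 1.32, 2.87 and 5.76 CPM in bifunctional tumors, 4.51, 3.09, 4.21 and 2.803 CPM in trap control tumors and 2.43, 4.28 and 7.69 CPM in anti-PD-L1 tumors, and 2 of 10 bifunctional tumors were above the anti-PD-L1 median. The log2 fold change of -0.59 (SE 0.22, adjusted p = 0.0514) lay just outside the threshold, and DESeq2 called the gene lower. The multiplexins of vessel basement membranes did not pass: Col15a1 had 0.50 (adjusted p = 0.196) and Col18a1, the source of endostatin, -0.17 (adjusted p = 0.389). Col7a1, the anchoring fibril of skin, had 70.9, 139 and 202 CPM in bifunctional tumors and 82.0, 144 and 190.5 CPM in anti-PD-L1 tumors (-0.10, adjusted p = 0.663).

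Summed over the family, collagen reached 23071 ± 7105 CPM in bifunctional tumors, 18627 ± 3208 CPM in the later trap control tumors and 17635 ± 4533 CPM in anti-PD-L1 tumors (SD, n = 10, 4 and 10). Fibrillar sums were 10361, 16024 and 30663 CPM in bifunctional tumors (lowest, median, highest) and 6499, 12459 and 19713 CPM in anti-PD-L1 tumors. Transmembrane sums were 5.94, 9.74 and 227 CPM in bifunctional tumors and 5.84, 9.45 and 15.9 CPM in anti-PD-L1 tumors, so that the medians were alike and the means, at 33.1 ± 68.4 and 9.46 ± 2.87 CPM, differed, with C0479 at 227 CPM. FACIT sums averaged 2271 ± 531 and 1955 ± 409 CPM, and type VI sums 1455 ± 289 and 1267 ± 332 CPM. Every class overlapped between the 2 groups.

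**Figure D4:**
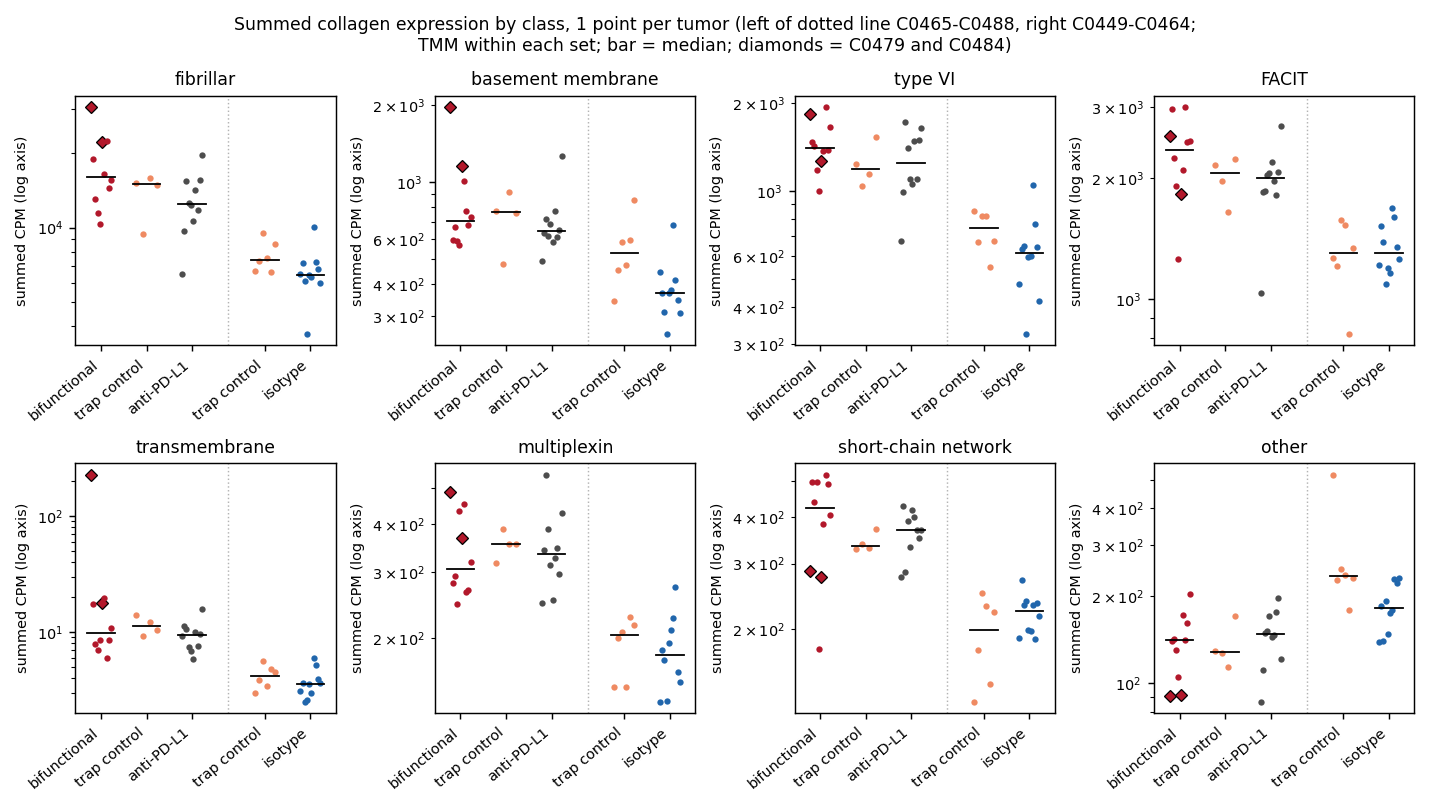
Summed CPM of each collagen class in each tumor (points, log axis; diamonds are C0479 and C0484), by group, with the later and the first libraries scaled separately. Transmembrane genes reach 227 CPM in C0479 and stay at or below 15.9 CPM in anti-PD-L1 tumors.

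Chains of a single trimer did not always move together. The TPM ratio of Col1a1 to Col1a2 was 0.426 ± 0.153 in bifunctional tumors, 0.367 ± 0.134 in the later trap control tumors and 0.263 ± 0.0633 in anti-PD-L1 tumors (mean ± SD). It lay above the anti-PD-L1 median in 9 of 10 bifunctional tumors and above its highest value in 5. The Col4a1 to Col4a2 ratio was 1.73 ± 0.0949 in bifunctional tumors, 1.83 ± 0.0674 in trap control tumors and 1.90 ± 0.177 in anti-PD-L1 tumors, with 7 of 10 bifunctional tumors below the lowest anti-PD-L1 tumor. Col6a1 to Col6a2 stood at 1.64 ± 0.193, 1.74 ± 0.244 and 1.76 ± 0.121 in those groups. In the first libraries the Col1a1 to Col1a2 ratio was 0.450 ± 0.0638 in trap control tumors and 0.428 ± 0.0816 in isotype tumors, and that of Col6a3 to Col6a1 was 0.0867 ± 0.0773 and 0.205 ± 0.106. Trap control tumors of the first and the later libraries also differed in these ratios. Their Col4a1 to Col4a2 ratio was 1.40 ± 0.124 in the first libraries and 1.83 ± 0.0674 in the later ones. Col6a1 to Col6a2 was 1.09 ± 0.0213 and 1.74 ± 0.244, and Col5a1 to Col5a2 was 7.19 ± 6.63 and 1.30 ± 0.272. The ratios are descriptions and were not tested.

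**Figure D5:**
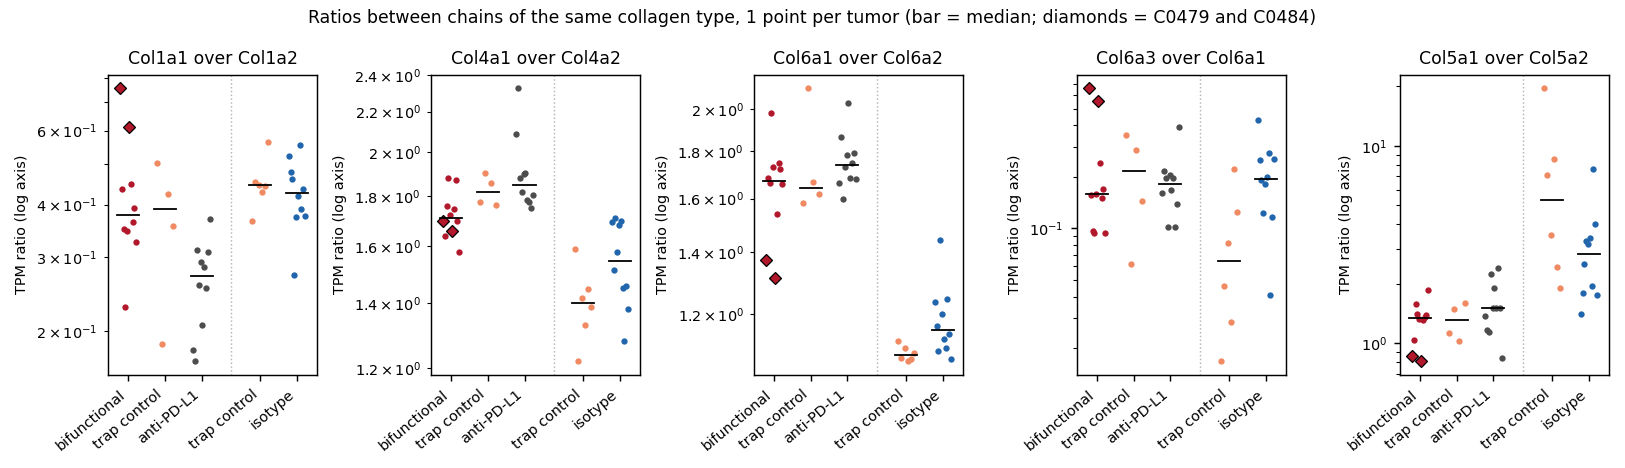
TPM ratio of chains that assemble together (Col1a1 to Col1a2, Col4a1 to Col4a2, Col6a1 to Col6a2, Col6a3 to Col6a1, Col5a1 to Col5a2) in each tumor, by group and run. The Col1a1 to Col1a2 ratio spans 0.229 to 0.757 in bifunctional tumors and 0.170 to 0.370 in anti-PD-L1 tumors.

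In the first libraries the trap control was set against the isotype, which asks what TGF-β trapping does without PD-L1 binding. None of 32 collagen genes passed by edgeR, beside 7.34% of all genes called, 3.19% higher and 4.15% lower. DESeq2 called 2 of 32, beside 1713 of 14183 genes. On log2(TPM + 1), limma called 0 of 32 but only 2 of 14183 genes, so it could hardly have called a member. By edgeR, 7 members had an unadjusted p under 0.05 (21.9%, beside 26.2% of all genes). The median log2 fold change was 0.06 against 0.02 over all genes, and 18 of 32 were positive. Col7a1 came nearest: it had 178, 233 and 522 CPM in trap control tumors and 137, 181 and 229 CPM in isotype tumors, with 4 of 6 trap control tumors above the highest isotype tumor and C0459 far above the rest. Its log2 fold change was 0.58 (SE 0.19, adjusted p = 0.0651), and 0.29 without C0459. Col4a2 had 103, 180.5 and 309 CPM in trap control tumors and 77.8, 116 and 223 CPM in isotype tumors (0.63, SE 0.22, adjusted p = 0.0770). Col7a1 and Col4a2 were the 2 collagen genes called by DESeq2. Col4a1 stood at 0.53 (adjusted p = 0.134).

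The abundant fibrillar chains did not pass in that comparison. Col1a1 had 1378, 1776 and 2556 CPM in trap control tumors and 639, 1476 and 2502 CPM in isotype tumors (0.40, SE 0.20, adjusted p = 0.225). Col1a2 had 2843, 3468 and 4672 and 1804, 2893 and 3888 CPM (0.35, adjusted p = 0.156), with 5 of 6 trap control tumors above the isotype median. Col3a1 had 987, 1544 and 1717 and 834, 1571 and 2567 CPM (-0.14, adjusted p = 0.660). Col6a3 had the lowest log2 fold change among the core members, -0.90 (SE 0.40, adjusted p = 0.166), from 16.9, 48.0 and 92.1 CPM in trap control tumors and 36.3, 84.7 and 234 CPM in isotype tumors, and 3 of 6 trap control tumors lay below the lowest isotype tumor. The genes that had passed between bifunctional and anti-PD-L1 tumors had 0.33 (Col8a2), -0.70 (Col11a1) and 0.13 (Col10a1), with adjusted p of 0.595, 0.463 and 0.907. Col8a2 had 0.990, 1.99 and 3.78 CPM in trap control tumors and 0.379, 1.68 and 3.53 CPM in isotype tumors.

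Adding PD-L1 binding to the trap was tested in the later libraries, bifunctional against the 4 trap control tumors. None of 37 collagen genes passed by edgeR, by DESeq2 or by limma. Over all 15704 genes, edgeR called 0.00637%, DESeq2 214 genes and limma 0, so edgeR and limma could hardly have called a member. By edgeR, 2 members had an unadjusted p under 0.05 (5.41%, beside 15.5% of all genes): Col17a1 at 3.14 and Col6a6 at 2.08, both highest in C0479. The median was 0.32 against 0.03 over all genes, and 34 of 37 were positive, beside 55.3% of all genes. Without C0479 and C0484 0 of 37 passed (beside 0 of 15480 genes) and the median was 0.19 against 0.01. Col1a1 had 0.41 (SE 0.38), Col8a2 0.59 (SE 0.52), Col11a1 1.02 (SE 0.71) and Col10a1 0.23 (SE 0.60). One of the trap control tumors, C0466, was lowest of the 4 for 20 of 33 members.

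Trap control against anti-PD-L1 tumors of the later libraries also gave 0 of 37 by edgeR, DESeq2 and limma. Over all 15704 genes, edgeR called 0.0127%, DESeq2 3 genes and limma 0, so a member could hardly have been called. By edgeR, 2 members had an unadjusted p under 0.05 (5.41%, beside 4.92% of all genes): Col8a2 at 1.30 (SE 0.48, adjusted p = 0.853) and Col10a1 at 1.22 (SE 0.57, adjusted p = 0.979). Col11a1 had 1.35 (SE 0.65), Col23a1 1.10 (SE 0.54) and Col1a1 0.51 (SE 0.37). For Col8a2, Col11a1 and Col23a1, C0466 was lowest of the 4 trap control tumors, at 2.29, 1.06 and 1.72 CPM. This comparison shares its groups with the 2 above, so the values are given side by side only.

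Whether the added trap acted differently with and without PD-L1 blockade was tested as an interaction, the bifunctional minus anti-PD-L1 difference less the trap control minus isotype difference, each within its own run of libraries. It passed for 3 of 39 members, all higher (7.69%, beside 7.91% of all genes in either direction and 3.96% higher). The share was near the background in either direction and above it among genes called higher, and this difference was not tested. An unadjusted p under 0.05 was found for 9 (23.1%, beside 26.9% of all genes). The 3 genes were Col11a1 at 3.10 (SE 0.85, adjusted p = 0.0236), Col17a1 at 3.996 (SE 1.26, adjusted p = 0.0432) and Col28a1 at 3.14 (SE 1.02, adjusted p = 0.0489). Col28a1, a collagen of peripheral nerve, had 1.05, 2.70 and 19.6 CPM in bifunctional tumors, 0.527, 3.61 and 5.77 CPM in anti-PD-L1 tumors, 0, 0.119 and 0.330 CPM in the first trap control tumors and 0.0427, 0.458 and 1.41 CPM in isotype tumors, and its 2 highest tumors were C0484 and C0479. Schwann cell markers summed to 7.99, 13.4 and 46.8 CPM in bifunctional tumors and 6.87, 7.97 and 17.2 CPM in anti-PD-L1 tumors; their part in the result was not tested. Without C0479 and C0484 1 of 39 passed, Col11a1 (beside 3.27% of all genes), and without C0480 its interaction was 2.23. Among 36 fits that left out 1 library, the call was lost in 1 for Col11a1, in 18 for Col17a1 and in 25 for Col28a1. The count was 1 or 0 in 15 of 36 fits that left out 1 library: it was 0 without C0460, a trap control tumor of the first libraries, and 1 without any of C0449, C0450, C0451, C0459, C0461, C0462, C0470, C0472, C0473, C0474, C0475, C0477, C0479 or C0484. Calls over all genes fell too, from 1279 of 16174 to 781 of 16064 without C0479 and 843 of 16070 without C0484. For the other fits that left out 1 library they are not given here. Col8a2 had 1.60 (adjusted p = 0.0761), Col13a1 -1.02 (adjusted p = 0.0581), Col1a1 0.56 (adjusted p = 0.365) and Col1a2 -0.07 (adjusted p = 0.857). DESeq2 called 4 higher (Col11a1, Col14a1, Col28a1 and Col8a2) and 1 lower (Col13a1), beside 1815 of 16174 genes. The interaction crosses the 2 runs of libraries, and a difference between the runs in how a treatment reads out cannot be told apart from it.

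Comparisons of bifunctional and of anti-PD-L1 with isotype tumors have no run in common and go through the trap control tumors of both. Bifunctional against isotype gave 0 of 39 by edgeR and DESeq2. Over all genes, edgeR called 2.39% (0.909% higher and 1.48% lower) and DESeq2 865 of 16174. By edgeR, 4 members had an unadjusted p under 0.05 (beside 20.9% of all genes): Col4a2 at 1.00, Col11a2 at 1.08, Col6a2 at 0.70 and Col1a2 at 0.55. Without C0479 and C0484 it was again 0 of 39, beside 0.294% of all genes. Anti-PD-L1 against isotype gave 0 of 39 by edgeR and DESeq2. Over all genes, edgeR called 0.0124% (0.00618% higher and 0.00618% lower) and DESeq2 29 of 16174, so a member could hardly have been called. By edgeR, 2 members had an unadjusted p under 0.05 (beside 9.74%): Col11a1 at -2.06 (SE 0.93) and Col7a1 at 0.66 (SE 0.30).

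The size of the difference between the runs was read from trap control tumors, the single treatment present in both. The first against the later trap control tumors differed in 17 of 39 members, 8 higher and 9 lower (43.6%, beside 49.9% of all genes, 25.6% higher and 24.3% lower), and 18 had an unadjusted p under 0.05 (beside 55.9%). Col7a1 was higher by 1.86 (adjusted p = 4.08e-07) and Col11a2 by 2.14, and Col5a2 (-1.67), Col6a3 (-1.45), Col8a2 (-1.31) and Col3a1 (-0.75) were lower. On log2(TPM + 1) the split of calls was 1 higher and 16 lower, beside 11014 of 16174 genes called and a median of -0.55 over all genes. Without C0467 11 members passed, and the calls over all genes in that fit are not given here. Differences of this size lay between tumors given the same agent.

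Genes that act on collagen were counted from lists by role in the comparison of bifunctional with anti-PD-L1 tumors; the call background is again 12.4% higher and 13.1% lower. Of 14 fibril-associated proteoglycans and glycoproteins 5 rose and 0 fell, with a median of 0.80. Fmod, fibromodulin, a small leucine-rich proteoglycan that binds type I fibrils, had 1.70, 7.004 and 32.0 CPM in bifunctional tumors and 1.18, 2.46 and 3.95 CPM in anti-PD-L1 tumors and rose by 2.04 (SE 0.45, adjusted p = 0.00636). The relatives Bgn (1.04), Aspn (1.29) and Prelp (1.31) rose too, as did the fibril-binding glycoprotein Comp (1.71), named after its value was seen. Of the first 4 only Fmod passed without C0479 and C0484, at 2.18. Of 11 collagen receptors 2 rose and 0 fell: Itga11, the collagen-binding integrin subunit of fibroblasts, had 2.60, 7.48 and 24.7 CPM in bifunctional tumors and 0.743, 1.30 and 4.77 CPM in anti-PD-L1 tumors (2.45, SE 0.50, adjusted p = 0.00525; 2.25 without the 2 libraries, still called), and Mrc2, an uptake receptor for collagen fragments, rose by 1.01 (not called without them).

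Of 11 degradation genes 2 rose and 0 fell. Timp3, a matrix-bound inhibitor of metalloproteinases, had 25.2, 56.7 and 139 CPM in bifunctional tumors and 17.0, 24.6 and 50.9 CPM in anti-PD-L1 tumors (1.32, SE 0.28, adjusted p = 0.00598; 1.05 without C0479 and C0484, still called), and the gelatinase Mmp2 rose by 0.85 (not called without them). Among 6 crosslinking genes 1 rose and 1 fell: Loxl4, a lysyl oxidase relative, had 29.3, 40.4 and 50.7 CPM in bifunctional tumors and 45.3, 52.4 and 69.8 CPM in anti-PD-L1 tumors and fell by 0.43 on the log2 scale (adjusted p = 0.00557), also without the 2 libraries, while Tgm2, a transglutaminase, rose by 0.27, a call lost without C0479 and C0484 and in 10 of 20 fits that left out 1 library. Of 12 laminin and other basement membrane partners 2 rose, Lama2 (1.15) and Lama3 (1.30), and neither passed without the 2 libraries.

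Of 19 genes of the intracellular machinery that hydroxylates and folds procollagen 1 rose and 4 fell, with a median of -0.08. P4ha3, a catalytic subunit of prolyl 4-hydroxylase, rose by 0.72 (adjusted p = 0.0176). The isomerase Fkbp10 (-0.28), the prolyl 4-hydroxylase beta subunit P4hb (-0.26) and P3h4 (-0.22), a partner of the lysyl hydroxylase complex, fell by small amounts, and these 3 changed sign to 0.02, 0.09 and 0.07 on log2(TPM + 1), a scale on which the median of all genes was shifted by 0.15. Of 11 secretion and processing genes 1 rose, the procollagen N-proteinase Adamts2 (0.87), and 1 fell, the vesicle-coat protein Sec24d (-0.20, 0.09 on log2(TPM + 1)). The collagen chaperone Serpinh1, named after its value was seen, fell, with a log2 fold change of -0.21. None of the other 6 passed without C0479 and C0484.

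Markers of cell types were counted for the same comparison. Of 9 fibroblast markers 2 rose, Pdgfra (0.75) and Pi16 (1.39), and 0 fell. The median log2 fold change over the 9 was 0.43, against 0.01 over all genes. Their summed CPM, in which the most abundant markers weigh most, had a lower median in bifunctional tumors. It was 3494, 4856 and 6149 in bifunctional tumors and 4771, 5305 and 6151 in anti-PD-L1 tumors. Macrophage markers rose in 5 of 7 and summed to 899, 1308 and 2187 CPM in bifunctional tumors (highest in C0484) and 689, 981 and 1310.4 CPM in anti-PD-L1 tumors. Smooth muscle and pericyte markers summed to 334, 799.8 and 1121 and 694, 786 and 1324 CPM (1 of 7 rose). Of endothelial markers 1 of 8 rose (Vwf, 1.49), of Schwann cell markers 1 of 5 (Mbp, 0.75), of cartilage markers 0 of 2 tested, and of mammary epithelial markers 1 of 5 (Cdh1, 1.46) with 1 lower (Krt8, -0.59). Muscle markers rose in 8 of 9, skin markers in 2 of 2 tested and adipocyte markers in 4 of 8. Without C0479 and C0484 the calls of Pdgfra, Vwf and 1 of the 4 macrophage genes with the smallest adjusted p (C1qb) were kept, while Pi16, Mbp, Cdh1, Krt8, the smooth muscle gene Myh11, both skin genes, all 4 adipocyte genes and the 4 muscle genes examined were not called. The part of these cell types in the collagen values was not tested gene by gene. Col8a2, Col11a1 and Col10a1 passed without C0479 and C0484 and with muscle, skin and adipocyte scores as covariates. Neither fit holds a score for fibroblast, macrophage, endothelial, Schwann cell or cartilage markers, so neither can tell what part cell types had. In the trap control against isotype comparison, the muscle sum was 1.23, 2.11 and 5617 CPM in trap control tumors, highest in C0463, and 0.788, 1.38 and 85.1 CPM in isotype tumors, and the single call among the collagen partner lists was Plod2, a lysyl hydroxylase, lower by -0.37 (adjusted p = 0.0377), a call lost in 8 of 16 fits that left out 1 library and in 6 of 10 other settings, marker scores and removal of GC and length trends among them.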

How the data were processed

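Total RNA of 40 EMT-6 tumors was sequenced after ribosomal depletion and random priming, per the labels' protocols. The authors deposited expected counts and TPM per Ensembl gene; RSEM 1.2.31, Bowtie2 2.3.1 and build mm10 are named in the submitters' processing notes. The annotation, trimming and strand setting are not given in the sources used here. RSEM divides reads shared by related genes, and 14.0% of the deposited expected counts were not whole numbers, so they were rounded before testing. TPM as deposited by the authors was used to compare levels between genes and in alternative tests on a log2 scale, which understates changes of low genes; deposited TPM carries no depth of its own.

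Samples were grouped by the treatment label, and libraries C0449 to C0464 and C0465 to C0488 were kept apart. Symbols, positions and exons came from GENCODE M21 (mm10) and promoters from RefSeq. Total counts ran from 13495835 to 27658263 per library. Counts were scaled by TMM within each run, filtered by filterByExpr and tested with edgeR 4.0.16 (quasi-likelihood F test, two-sided, Benjamini-Hochberg adjustment over all genes tested, threshold 0.05) in R 4.3.3; SE is the log2 fold change divided by the square root of F. Trap control against isotype used a fit of 16 libraries, the 3 comparisons among the later libraries a fit of 24, and the interaction and comparisons across runs a fit of 40 with a mean for each group in each run. limma 3.58.1, DESeq2 1.42.0, Python 3.11.15, numpy 2.4.6, pandas 2.3.3 and matplotlib 3.10.9 were also used. The scripts were tested on simulated data. No 2 libraries of a group agreed within sampling noise (smallest chi-square per degree of freedom 9.60). Where the labels do not say that libraries came from separate cultures or animals, p-values measure the spread between these libraries.

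The collagen classes, partner lists and tests were chosen with earlier results of these data known. Genes were named by a rule: 21 core collagen genes, up to 10 called collagen genes per comparison, and up to 4 called genes of each partner or marker list; values of the core genes are given in full for bifunctional against anti-PD-L1 tumors and in part elsewhere, and genes outside the rule were named after their values were seen, among them Col8a2 in every comparison but bifunctional against anti-PD-L1, and Col23a1 in trap control against anti-PD-L1. Alternatives were DESeq2 size factors, no filter or a mean of at least 1 CPM, DESeq2, limma on log2(TPM + 1) and log2(TPM + 0.1), structural RNAs left out, muscle, skin and adipocyte marker scores as covariates, removal of GC and length trends, other sets of libraries in the fit, and leaving out libraries. Set tests and p-values for summed scores were not run.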

Additional observations from a re-analysis of the deposited data

Results flagged for a closer look

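Of 165 groups of 4 to 10 tumors examined (24 collagen genes and 9 class sums), 18 held a tumor whose gap to the nearest other was large for the group's range; chance alone gives about 1 in 20. Several came from the same tumor. Among bifunctional tumors, C0479 was highest for Col17a1, at 208 CPM against a median of 3.31 in the other 9, and for the transmembrane sum, at 227 CPM against 8.597. Among the later trap control tumors, C0466 was lowest for Col3a1 (2905 CPM, median of the others 5005), for the fibrillar sum (9461 against 15126) and for all collagens (13818 against 20222). Among the first trap control tumors, C0463, the tumor with the most muscle marker RNA, was lowest for Col3a1 (987 CPM against 1555) and Col12a1 (547 against 1074), and C0459 was highest for Col7a1 (522 against 229.8) and for the class that holds it (523 against 230.1).

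Among anti-PD-L1 tumors, C0469 was lowest for Col5a1 (341 CPM against 673), Col12a1 (781 against 1564), Col16a1 (203 against 316) and the FACIT sum (1034 against 2036), C0478 was highest for Col4a1 (828 against 377) and the basement membrane sum (1266 against 633), and C0474 was lowest for Col28a1 (0.527 against 3.91). Among isotype tumors, C0452 was lowest for Col1a1 (639 CPM against 1558) and for the fibrillar sum (3738 against 6485). The interaction of the trap and PD-L1 arms passed its test for Col11a1 (3.10 on the log2 scale), Col17a1 (3.996) and Col28a1 (3.14). It was lost in 18 of 36 fits that left out 1 library for Col17a1 and in 25 for Col28a1, in both cases also without C0479 or C0484, and in 1 for Col11a1. It spans the 2 runs of libraries and cannot be told apart from a difference between them.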

How the results depend on the processing

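No paired analysis was possible because the titles give library numbers, not replicate numbers shared between groups. In the bifunctional against anti-PD-L1 comparison, 7 collagen genes became 3 with marker scores as covariates, 3 without C0479 and 3 without C0479 and C0484. Calls over all genes fell too, from 4014 of 15704 to 821 of 15704, 2141 of 15585 and 760 of 15480 in the same order. Leaving out 1 library gave 3 to 12 collagen genes, the highest without C0478. In trap control against isotype, 0 became 2 with DESeq2 (beside 1713 of 14183 genes) and 1 in the fit of 40 libraries (beside 1576 of 16174 genes), and 0 to 2 without 1 library. The interaction gave 3, but 1 without a filter and 5 with DESeq2 (4 higher and 1 lower, Col13a1). It gave 0 on log2(TPM + 1), 0 on log2(TPM + 0.1), and 1 each with marker scores and without C0479, C0484 or both. Over all genes the reported fit called 1279 of 16174. In the same order the others called 713 of 28575, then 1815, 59, 33 and 766 of 16174, then 781 of 16064, 843 of 16070 and 522 of 15975. Removing GC and length trends gave 1 higher (Col11a1) and 1 lower (Col13a1), beside 968 of 16174 genes. With structural RNAs left out 2 were called higher (Col11a1 and Col17a1), beside 1227 of 16624 genes. Leaving out 1 library gave 0 to 4 collagen genes. The first against later trap control count of 17 (8 higher, 9 lower) ran from 11 to 17 without 1 library. Its split was 1 higher and 16 lower on log2(TPM + 1) and 1 higher and 18 lower on log2(TPM + 0.1). These scales shifted the overall gene median by -0.55 and -1.01 and called 11014 and 11659 of 16174 genes. The other 4 comparisons gave 0 throughout the fits that left out 1 library. For most fits that left out 1 library the calls over all genes are not given here, so these ranges of collagen counts have no background beside them. Using group medians in place of means moved the transmembrane log2 ratio to 0.043 for bifunctional over anti-PD-L1 and to -0.22 for bifunctional over trap control.

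Signs changed as follows, all on the log2 scale. Between bifunctional and anti-PD-L1 tumors, marker scores as covariates gave Lama3 -0.021, Col4a1 -0.11, Col6a3 -0.20, Col15a1 -0.21 and Col7a1 0.092. Without C0479 and C0484, Col4a1 was -0.041, Col6a3 -0.11, Col15a1 -0.037 and Col7a1 0.067. Removing GC and length trends gave Col5a1 -0.0032, Col6a1 -0.037, Col6a2 -0.043, Col6a3 -0.018, Col12a1 -0.060, Col16a1 -0.081 and Col8a1 -0.061. On log2(TPM + 1) and log2(TPM + 0.1), Fkbp10 was 0.020 and 0.021, P4hb 0.089 and 0.090, P3h4 0.066 and 0.075, Sec24d 0.088 and 0.093, Col18a1 0.14 and 0.15, and Col7a1 0.093 and 0.11. Between trap control and isotype tumors, Col3a1 was 0.21 and Col12a1 0.070 with marker scores, Col18a1 -0.14 without GC and length trends, Col10a1 -0.012 on log2(TPM + 1) and -0.30 to 0.47 over the fits that left out 1 library (negative without C0459 and without C0461), and Col15a1 0.050 without C0455. Between first and later trap control tumors, log2(TPM + 1) and log2(TPM + 0.1) gave Col6a2 -0.62 and -0.65, Col16a1 -0.62 and -0.65, and Col4a5 -0.21 and -0.29. The cause of these changes was not tested. Over all alternatives, 2285 single-gene values kept direction and side of the threshold, 16 gained a call and 41 changed sign, and the others lost a call. For trap control against isotype, fitting only the 2 groups compared is the reported fit. A median of under 10 counts limits 13 of the 44 members, for which a difference may have been undetectable at this depth.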
